A study of Oryza sativa Japonica Group with 6 samples.

Results

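Shoots of rice seedlings given 24 h of water after 8 h of air-drying were set against shoots that had never been dried, to see which transcripts still differed 1 day after re-watering. The plants were wild-type Nipponbare (Oryza sativa, Japonica), grown on MS medium under continuous light. Control seedlings were 10 days old, and the rehydrated seedlings were 11 days old, so that an additional day of growth and the drying and re-watering cannot be told apart. Each of the 2 control and 2 rehydration libraries came from a pool of 20 shoots cut above the seed, and the rehydrated material mixed recovered with damaged leaf tissue, by the account of the study. A further pair of libraries, from 10-day-old seedlings air-dried for 8 h and not re-watered, is used for levels set beside the comparison and for the estimate of the spread. Expression was measured by RNA-seq in RPKM, the reads of a transcript scaled to its length in kilobases and to the number of mapped reads in the library. A transcript was included where its RPKM was at least 1 in at least 2 of the 4 control and rehydration libraries, which kept 25511 of the 66153 transcript models. Just inside this limit lay LOC_Os01g13100_3, with 0 and 0 RPKM in the control and 4.88 and 1.00047 after rehydration, and just outside it lay LOC_Os03g08114_1, with 0.750 and 1.02 RPKM in the control and 0.99998 and 0.218 after rehydration.

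Drying closes stomata and raises abscisic acid (ABA), a hormone made from carotenoids by 9-cis-epoxycarotenoid dioxygenase (NCED). ABA binds receptors that inhibit clade A protein phosphatases 2C (PP2Cs), which frees SnRK2-type kinases to activate bZIP factors at ABA-responsive genes, among them the late embryogenesis abundant (LEA) proteins and dehydrins, hydrophilic proteins that protect cell structures as water is lost. Another set of genes is reached through AP2-type DREB factors and through NAC factors. In leaves the transcripts of the chloroplast, of nitrogen assimilation and of cell expansion commonly decline in drought and return when water does. The PP2Cs, NCED and the JAZ repressors of jasmonate (JA) signalling are themselves transcribed in response to the hormone that they limit or make.

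The 4 libraries were of similar depth. Relative to control library 1, the depth was 0.919 in control library 2 and 0.938 and 0.862 in the rehydration libraries. It was read from the most frequent ratio of values to control library 1, among loci with 1 model detected in both at an RPKM under 1. Between 23755 and 24675 transcripts reached an RPKM of 1 in these libraries, and no pair of libraries held identical values. The median absolute log2 difference between replicates was 0.297 in the control and 0.277 after rehydration, against 0.356 between the group means. The 10 highest transcripts of a library made up 10.2% and 7.59% of its summed RPKM in the control, against 6.32% and 5.20% in rehydrated shoots, a difference without overlap whose part in the results was not tested. The tissue carried the marks of green leaf. The chlorophyll a/b-binding protein LOC_Os11g13890 stood at 1556 and 1252 RPKM in the control and 1367 and 1063 after rehydration, and the protochlorophyllide oxidoreductase LOC_Os10g35370, an enzyme of chlorophyll synthesis, at 123 and 118 and at 132 and 104. Both pairs overlapped. In pooled shoots, fewer cells of a type and less RNA per cell cannot be told apart.

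Among the calls far more transcripts were higher than lower, while the transcripts whose libraries did not overlap were balanced. Both rehydration libraries lay above both control libraries for 6860 transcripts (26.9%) and below for 6866 (26.9%). Of the 25511 transcripts tested with limma on log2(RPKM + 1), 228 passed as higher in rehydrated shoots, 0.894% of those tested, and 26 were called lower, 0.102%. A call needed an adjusted p under 0.01 and a fold over 2 on that scale. The median change among the higher calls was 3.15 on the log2 scale, with a range from 1.52 to 6.86, and 18 of them were listed at 0 in both control libraries. Among the lower calls the median size of the change was 2.67, and 5 were listed at 0 in both rehydration libraries. The median change over all tested transcripts was −0.01. At an adjusted p under 0.05, with the same fold, as in every count at these thresholds below, the counts were 1057 higher (4.14%) and 363 lower (1.42%), and without adjustment at p under 0.05 they were 2075 (8.13%) and 1326 (5.20%).

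These counts rested on every library. Without control library 1, control library 2, rehydration library 1 or rehydration library 2 the counts were 0 higher and 0 lower in each case, so that none of the calls below held when 1 of these libraries was left out. At an adjusted p under 0.05 the counts without 1 of the 4 libraries ran from 61 higher, without rehydration library 2, to 451, without control library 2, and from 13 to 41 lower. The unadjusted counts at p under 0.05 remained between 1315 and 2364 higher and between 797 and 1528 lower. With only the 4 control and rehydration libraries in the fit, 85 were called higher and 12 lower, and 79 and 9 of these were among the 228 and 26. Summing the models of a locus before the test gave 527 loci higher and 118 lower of 20247, and 214 of the 222 loci with a higher call were called again. The plot of calls by the libraries in the fit shows these counts.

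**Figure D1:**
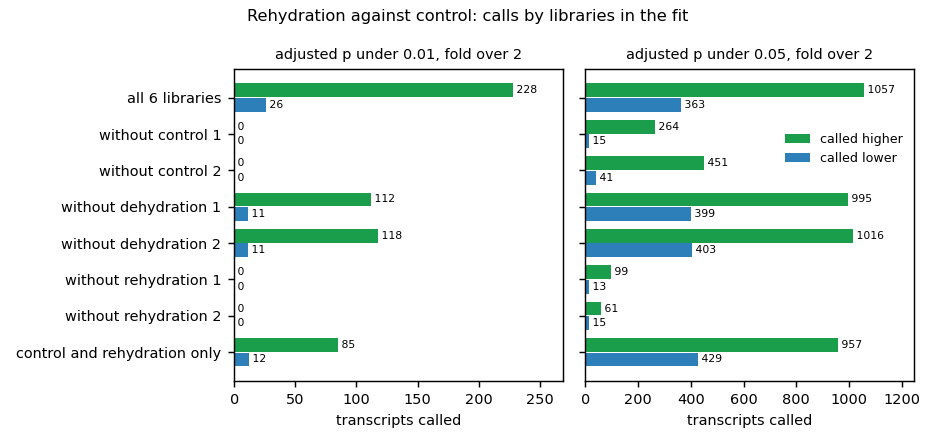
Number of transcripts called higher (green) and lower (blue) in rehydrated than in control shoots at an adjusted p under 0.01 (left) and under 0.05 (right), with all 6 libraries, with each library left out, and with the 4 control and rehydration libraries only. With all 6 libraries the counts were 228 and 26 at the stricter threshold, and 0 and 0 without any 1 of the control or rehydration libraries.

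Levels in the dried shoots place most of these calls between the control and the dried state. Of the 228 higher calls, 200 had both rehydration libraries between the control and the dehydration libraries, 13 had rehydration libraries that overlapped those of dehydration, and 15 had rehydration libraries above all others. Of the 26 lower calls these numbers were 15, 6 and 5. The comparison of dried shoots with the same control libraries called 2302 transcripts higher (9.02%) and 3708 lower (14.5%) of the same 25511. Transcripts that reached the RPKM limit only in dried shoots are not among the 25511, while those lost on drying are. With the limit applied to all 6 libraries, 26790 transcripts would have been kept. The balance of these counts need not be that of drying as a whole. The study, which used another test (edgeR), reported more transcripts raised than lowered on drying. The source of this difference was not tested. Because both comparisons use the control libraries, their values are given side by side and not as an overlap.

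The LEA proteins and dehydrins remained the furthest above the control of the functional groups examined. Their list was drawn by description from genes that responded to hormones in microarrays of other samples, so it is not the whole gene family. All 11 tested members of the list, of 12, had both rehydration libraries above both control libraries, as had 26.9% of all tested transcripts. Of the 11, 4 rose (36.4%), against 0.894% of all tested transcripts. The dehydrin RAB 16B (LOC_Os11g26780) stood at 0.471 and 2.91 RPKM in the control, 509 and 289 in dried shoots and 254 and 121 after rehydration. Its change from the control was 6.20 ± 0.57 (SE) on the log2 scale, with an adjusted p of 0.00552 in limma. RAB 16C (LOC_Os11g26760) held 0.818 and 1.56 RPKM in the control and 149 and 64.0 after rehydration (5.52 ± 0.46, adjusted p = 0.00399). A group 3 LEA protein (LOC_Os01g50910) was near absence in the control, at 0.479 and 0.174 RPKM, and at 80.6 and 55.6 after rehydration, a change of 5.69 ± 0.24 (adjusted p = 0.000936). These transcripts were nearly absent from both control pools and abundant in both rehydrated pools.

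The most abundant member that rose was the dehydrin LOC_Os02g44870, with 21.3 and 33.8 RPKM in the control, 2045 and 2171 in dried shoots and 758 and 915 after rehydration (4.90 ± 0.28, adjusted p = 0.00220). The median change of the list was 4.90, against 6.24 in dried shoots, and it lay between 4.43 and 5.92 with 1 control or rehydration library left out. The LEA-like LOC_Os05g46480 showed how far a single control pool can move a value. Its control libraries held 0.982 and 23.7 RPKM and its rehydration libraries 693 and 405, and its change of 6.25 (adjusted p = 0.0315) became 4.43 without control library 1 and 8.06 without control library 2. Another dehydrin, LOC_Os03g45280, was already abundant in the control, at 343 and 289 RPKM, and held 724 and 1057 RPKM after rehydration (1.47, adjusted p = 0.0808).

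NCED3 and PSY3 among the genes of ABA synthesis, and PP2C4 and PP2C9 among the phosphatases that limit its signal, also rose. So did LOC_Os06g48300, which is annotated only as a PP2C family protein and is not among the ABA genes of the study. Of the 29 ABA genes that the study listed from these samples, all tested, 5 rose (17.2%, against 0.894% of all transcripts) and none fell. This list is no independent evidence of its own direction. NCED3 (LOC_Os07g05940) was barely detected in the control, at 0.303 and 0.330 RPKM, and stood at 123 and 126 RPKM in dried shoots and 59.8 and 80.4 after rehydration (5.74 ± 0.20, adjusted p = 0.000657). PSY3 (LOC_Os09g38320), a phytoene synthase at the entry to the carotenoid pathway, held 5.80 and 6.04 RPKM in the control and 34.8 and 42.2 after rehydration (2.51, adjusted p = 0.00440). The groups did not overlap for either gene. The other steps varied, and the 3 genes listed as BCH, the beta-carotene hydroxylase, differed among themselves. LOC_Os03g03370 had 3.87 and 5.84 RPKM in the control and 23.7 and 64.2 after rehydration (2.80, adjusted p = 0.0405), LOC_Os04g48880 had 42.9 and 44.0 (44.05) against 29.1 and 33.6, and LOC_Os10g38940 had 10.4 and 8.45 against 5.77 and 8.69. Among further genes, the violaxanthin de-epoxidase LOC_Os04g31040 had 38.4 and 26.5 RPKM against 29.2 and 27.8. The ABA 8′-hydroxylase ABA8OX1 (LOC_Os02g47470), which inactivates ABA, held 1.39 and 6.04 RPKM in the control and 5.84 and 4.91 after rehydration, so that the libraries overlapped (0.63, adjusted p = 0.54). These genes and the receptors below are shown for their place in the pathway and were named after their values were seen.

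Among the phosphatases, the PP2C LOC_Os06g48300 moved most, from 3.51 and 5.40 RPKM in the control to 579 and 518 in dried shoots and 200 (199.6) and 180 (180.3) after rehydration (5.15 ± 0.22, adjusted p = 0.000936). PP2C9 (LOC_Os09g15670) held 1.25 and 0.986 RPKM in the control and 32.4 and 39.6 after rehydration (4.12, adjusted p = 0.00122), and PP2C4 (LOC_Os03g16170) 6.90 and 2.06 against 58.3 and 74.3 (3.76, adjusted p = 0.00990). A list of 7 PP2Cs was drawn by the wording of descriptions from the hormone microarrays of other samples. PP2C4 and PP2C9, which are described in other words, are not among these 7. Of the 7, 1 rose, LOC_Os06g48300 (14.3%, against 0.894% of all transcripts). For 6 of the 7 (85.7%, against 26.9%) both rehydration libraries lay above both controls. The receptors did not share this pattern. The PYR/PYL receptors LOC_Os02g15640 and LOC_Os03g18600 held 82.4 and 58.9 and 20.9 and 57.2 RPKM in the control, and 55.1 and 60.5 and 30.6 and 45.6 after rehydration, with libraries that overlapped for both. Downstream, bZIP23 (LOC_Os02g52780), an activator of ABA-responsive genes in rice, stood at 16.2 and 13.8 RPKM in the control and 96.2 and 132 after rehydration (2.83, adjusted p = 0.00351). The plot of transcripts by library sets these values beside each other.

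**Figure D2:**
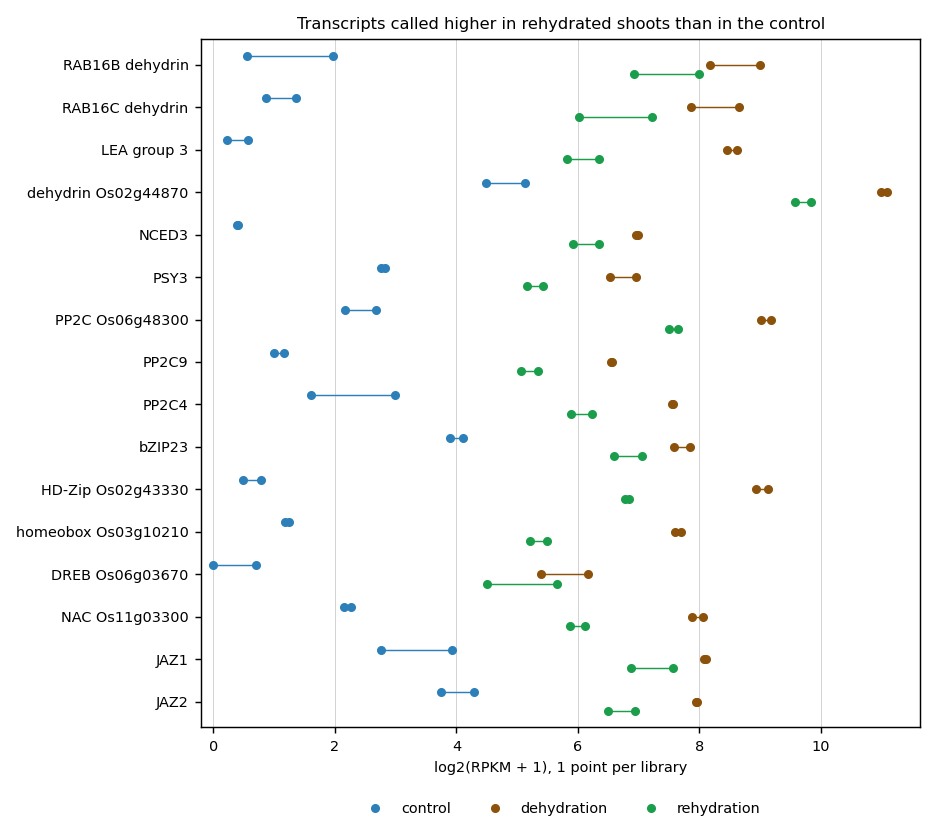
Expression of 16 transcripts called higher after rehydration, as log2(RPKM + 1), with 1 point per library and a line joining the 2 libraries of a condition. In each the 2 control libraries (blue) lie to the left of the 2 rehydration libraries (green), and for most the dehydration libraries (brown) lie further right, as for NCED3 at 0.303 and 0.330, 59.8 and 80.4, and 123 and 126 RPKM.

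Genes known to answer ABA kept that direction as a group. The study took genes that ABA raised or lowered from a published rice microarray series. Only those matched to a transcript model are covered here, fewer than the study counted in each direction. Of the 604 matched genes that ABA raised, 527 were tested. Of these, 49 rose (9.30%, against 0.894% of all transcripts) and 0 fell. Both rehydration libraries lay above both controls for 341 (64.7%) and below for 66 (12.5%), against 26.9% of all transcripts each way. At the looser adjusted p under 0.05, 145 of the 527 were higher and 5 lower, where 4.14% and 1.42% of all transcripts were called. The member with the largest change was LOC_Os05g39250, a YbhB and YbcL family protein, with 0.429 and 2.33 RPKM in the control, 513 and 270 in dried shoots and 286 and 222 after rehydration. This change of 6.86 ± 0.47 was the largest of all calls (adjusted p = 0.00244), and the adjusted p lay between 0.0131 and 0.0376 without 1 control or rehydration library. An actin-depolymerizing factor (LOC_Os03g60580) stood at 4.31 and 4.69 RPKM in the control and 304 and 287 after rehydration (5.75, adjusted p = 0.000657). Of the genes that ABA lowered, 508 were tested, 2 rose and 2 fell, and their median change was −0.13, against −1.48 in dried shoots. Both rehydration libraries lay below both controls for 198 of them (39.0%) and above for 101 (19.9%), where 26.9% of all transcripts lay each way, and at an adjusted p under 0.05 there were 14 lower and 9 higher. The 2 that rose were an abscisic stress-ripening protein (LOC_Os01g72900), at 4.56 and 7.44 RPKM in the control and 60.4 and 64.7 after rehydration, and the adenine phosphoribosyltransferase described further on, which was named after its values were seen. The auxin-induced genes, also from other samples, had a median of 0.77. Of 161 tested, 9 rose (5.59%) and 1 fell, where 0.894% and 0.102% of all transcripts did. These 9 include the phosphatases PP2C4 and PP2C9 and the homeobox factor LOC_Os03g10210, so that this list shares members with the ABA groups.

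Among transcription factors, NAC and AP2 factors held the most calls. The study chose its family members on these samples, so the counts are no independent evidence of their direction. Of 35 NAC factors tested, 9 rose (25.7%, against 0.894% of all transcripts) and 0 fell, and 28 had both rehydration libraries above both controls (80.0%, against 26.9%). LOC_Os11g03300 held 3.43 and 3.83 RPKM in the control, 266 and 235 in dried shoots and 68.8 and 57.4 after rehydration (3.79 ± 0.18, adjusted p = 0.00134). LOC_Os03g21030 held 8.56 and 13.1 RPKM in the control and 127 and 155 after rehydration, and LOC_Os05g34830 8.75 and 5.46 against 87.7 and 97.8. The most abundant of the NAC factors that rose was LOC_Os01g66120, at 57.1 and 81.5 RPKM in the control and 521 and 706 after rehydration (3.13, adjusted p = 0.00535), which was named after its values were seen. The median change of the family was 1.25 and stayed between 1.02 and 1.55 with 1 control or rehydration library left out.

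Of 41 AP2-EREBP factors tested, 6 rose (14.6%, against 0.894% of all transcripts) and 0 fell, and 33 had both rehydration libraries above both controls (80.5%, against 26.9%). The dehydration-responsive element-binding protein LOC_Os06g03670 was at 0 and 0.628 RPKM in the control, 41.0 and 71.0 in dried shoots and 21.7 and 49.7 after rehydration (4.73 ± 0.48, adjusted p = 0.00675). The ethylene-responsive factor LOC_Os03g09170 held 0.734 and 0.399 RPKM in the control and 18.9 and 42.4 after rehydration (4.24, adjusted p = 0.00656), and ERF110 (LOC_Os11g06770) 0 and 0.148 against 9.71 and 13.9 (3.56, adjusted p = 0.00303). Rehydration library 2 was the higher in each of these. Without it the family median fell from 1.30 to 0.73.

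The homeobox family split. Of 27 tested, 4 rose (14.8%, against 0.894% of all transcripts) and 0 fell, and the median change was −0.42. Yet 14 (51.85%) had both rehydration libraries below both controls and 9 (33.3%) above, against 26.9% of all transcripts each way. The 4 that rose are 3 factors annotated with a homeobox-associated leucine zipper and the homeobox factor LOC_Os03g10210, which held 1.26 and 1.37 RPKM in the control and 36.0 and 43.8 after rehydration. LOC_Os02g43330 was at 0.730 and 0.397 RPKM in the control, 561 and 488 in dried shoots and 109 and 113 after rehydration (6.17 ± 0.19, adjusted p = 0.000657), while LOC_Os04g45810 held 23.0 and 13.1 against 114 and 126 and LOC_Os09g21180 1.94 and 1.16 against 11.8 and 11.5. Members below the control included the knotted-type LOC_Os06g43860_4, of a class that maintains meristems, at 216 and 207 RPKM in the control and 162 and 149 after rehydration (−0.44, adjusted p = 0.52), which lies outside the rule for named genes.

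Other families had few calls. Of 35 MYB factors 3 rose (8.57%, against 0.894% of all transcripts). The first of them was LOC_Os01g64360 at 2.42 and 2.01 RPKM in the control and 47.6 and 80.8 after rehydration (4.30, adjusted p = 0.00241). The family median of 0.22 became −0.25 without rehydration library 2. The C2H2 zinc finger ZOS3-21 (LOC_Os03g60560) stood at 0.703 and 2.10 RPKM in the control, 169 and 231 in dried shoots and 101 and 156 after rehydration (5.78, adjusted p = 0.00241). All 8 heat stress transcription factors (HSF) tested had both rehydration libraries above both controls, as had 26.9% of all transcripts. Their median of 1.25 lay between 1.16 and 1.34 with 1 library left out. By limma 0 passed at an adjusted p under 0.01. At an unadjusted p under 0.05 with a fold over 2, 6 were higher and 0 lower, where 8.13% and 5.20% of all transcripts were called. The nearest to passing was LOC_Os06g35960 at 1.65 and 3.24 against 13.2 and 16.0 RPKM (2.21, adjusted p = 0.0128). Of 29 WRKY factors 0 passed by limma at an adjusted p under 0.01, and 12 were higher and 2 lower without adjustment at p under 0.05, with the same fold. At an adjusted p under 0.05 there were 7 and 1, where 4.14% and 1.42% of all transcripts were called. WRKY42 (LOC_Os02g26430) held 0.467 and 0.170 RPKM in the control and 8.64 and 19.1 after rehydration (3.41, adjusted p = 0.0137). The lower of these, WRKY95 (LOC_Os12g02440_1), was listed at 0 in both rehydration libraries and at 6.30 and 4.09 RPKM in the control, and its locus as a whole changed by 0.19 when the 4 models were summed. The 9 auxin response factors (ARF) lay the other way, with 6 (66.7%) below the control in both libraries and 1 (11.1%) above, against 26.9% of all transcripts each way. By limma 0 were called, with 0 higher and 2 lower at an unadjusted p under 0.05 with a fold over 2, as for ARF9 (LOC_Os04g36054) at 24.8 and 28.8 against 8.66 and 13.1 RPKM (−1.25, adjusted p = 0.123).

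Of the JAZ repressors, JAZ1 and JAZ2 rose. All 8 Tify proteins tested, the family that holds JAZ, had both rehydration libraries above both controls, as had 26.9% of all transcripts. These 8 are also family members that the study chose on these samples. JAZ1 (LOC_Os03g08320) held 5.76 and 14.1 RPKM in the control, 275 and 268 in dried shoots and 116 and 188 after rehydration (3.88 ± 0.41, adjusted p = 0.00813), and JAZ2 (LOC_Os10g25290) 12.5 and 18.5, 249 and 245 and 88.8 and 122 (2.70 ± 0.25, adjusted p = 0.00575). JAZ6 (LOC_Os03g08310) held 0.468 and 1.53 RPKM in the control and 9.48 and 37.1 after rehydration, with an adjusted p of 0.0482, and JAZ9 (LOC_Os04g32480) 0.675 and 0.551 against 7.01 and 14.7 (adjusted p = 0.0167). In all of these except JAZ7 (LOC_Os09g26780) rehydration library 2 was the higher, and the Tify median of 2.75 was 2.04 without it. The genes of JA synthesis and methylation were not raised in the same way. OPR7 (LOC_Os08g35740), an oxophytodienoate reductase of JA synthesis, held 19.7 and 31.8 RPKM in the control against 26.6 and 57.7 in rehydrated shoots. The JA methyltransferases JMT2 (LOC_Os06g22440), at 8.99 and 14.3 RPKM in the control, 0.246 and 0.335 in dried shoots and 11.1 and 8.76 after rehydration, and JMT3 (LOC_Os06g20920), at 10.1 and 21.2, 3.10 and 3.46 and 4.89 and 4.58, differed from each other in level. The first overlapped the control and the second lay below it, with an adjusted p of 0.0735.

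**Figure D3:**
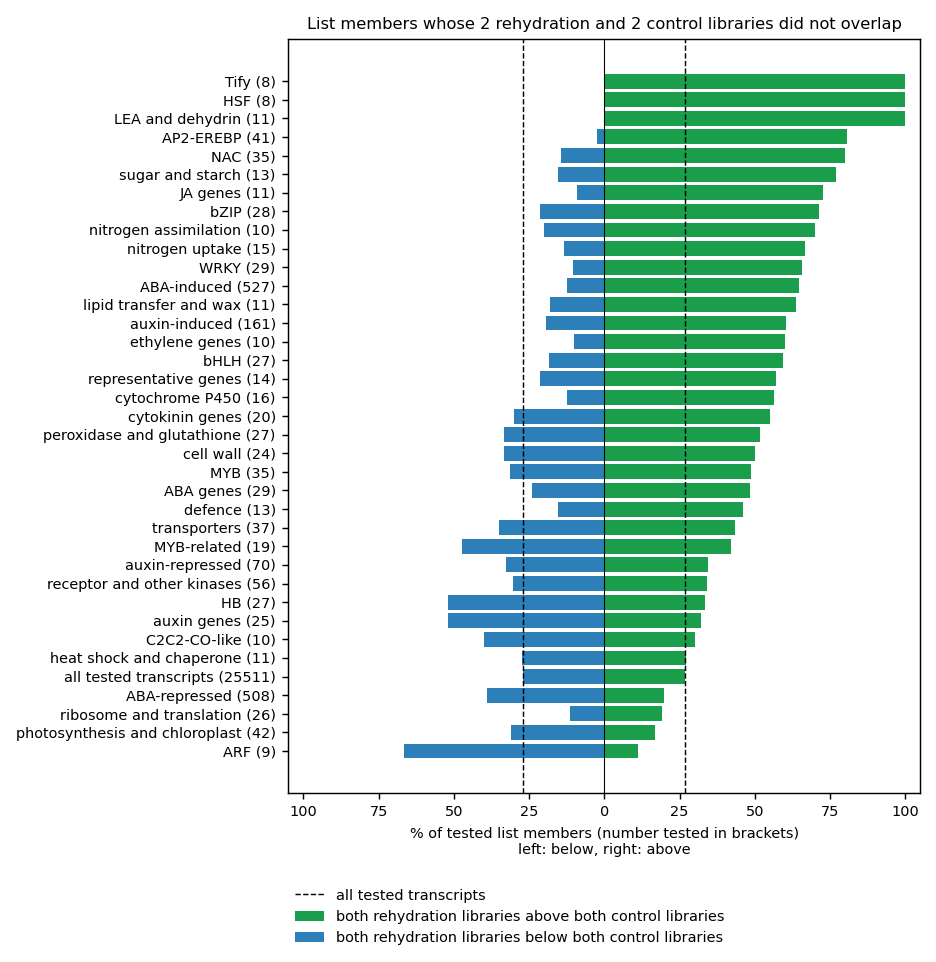
Share of the tested members of each list with at least 8 tested members whose 2 rehydration libraries both lay above (green, to the right) or both below (blue, to the left) the 2 control libraries, with the number tested in brackets and dashed lines at the shares over all 25511 transcripts. All members of the Tify, HSF and LEA lists lay above, against 26.9% of all transcripts, while photosynthesis and ribosome lists lay below that share.

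A small set of transcripts was highest in the rehydrated shoots themselves. These were chosen for their levels in all 3 conditions, after the values were seen. Of the 228 higher calls, 15 had rehydration libraries above both the control and the dried shoots, and 2 of them lie close together by locus number on chromosome 2. The aminotransferase LOC_Os02g02210 held 0.885 and 0.856 RPKM in the control, 13.9 and 2.87 in dried shoots and 142 and 111 after rehydration (6.08 ± 0.59, adjusted p = 0.00643 against the control). The cytochrome P450 LOC_Os02g02230 was at 0 and 0.112 RPKM in the control, listed at 0 in both dried libraries and at 22.6 and 16.3 RPKM after rehydration (4.26 ± 0.29, adjusted p = 0.00244). It was absent or nearly so in the 4 libraries that had not been re-watered. This gene, the chitinase CHIT3 and a GTPase-activating protein that stayed low were also targets of quantitative RT-PCR, and their primers are shown because the first 2 had their highest libraries after rehydration and the last stayed at the level of the dried shoots. Each primer is 20 bases long and is written 5′ to 3′.
LOC_Os02g02230 forward: tccatgagctcttcgacaac
LOC_Os02g02230 reverse: tctcattctcggtcatgcag
LOC_Os04g41680 forward: gctcatcgatcaggactgaa
LOC_Os04g41680 reverse: tagtgtactctatgctcatc
LOC_Os07g31720 forward: atgaagtactgcagctcgca
LOC_Os07g31720 reverse: ctcagcttcagagtgatgtc

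CHIT3 (LOC_Os04g41680), a chitinase of the kind that attacks fungal cell walls, held 28.4 and 5.75 RPKM in the control, 25.2 and 28.7 in dried shoots and 173 and 117 after rehydration. Its rehydration libraries lay far above all others, while its control libraries differed widely. The change of 3.35 had an adjusted p of 0.0393, and it moved between 2.29 and 4.41 as 1 control library or the other was left out. The 15 included 3 inhibitors of proteases. PIII1 (LOC_Os03g52390), a proteinase inhibitor II protein, held 27.8 and 43.6 RPKM in the control, 221 and 125 in dried shoots and 647 and 529 after rehydration (4.03 ± 0.35, adjusted p = 0.00444). PIII4 (LOC_Os03g52370) held 8.23 and 17.3, 58.9 and 45.9, and 120 (120.1) and 96.5 RPKM (3.06, adjusted p = 0.00953), and a cysteine proteinase inhibitor (LOC_Os04g28250) 6.37 and 6.09, 21.2 and 25.8, and 56.8 and 45.7 RPKM (2.85, adjusted p = 0.00269). In all 3 the dried shoots lay between the control and the rehydrated shoots.

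Adenine phosphoribosyltransferase, a purine salvage enzyme that also takes up cytokinin bases in plants, behaved differently from the inhibitors. LOC_Os07g30150 stood at 14.7 and 17.7 RPKM in the control, at 7.01 and 7.76 in dried shoots and at 59.5 and 59.0 after rehydration. It was lower than the control on drying (−1.03, adjusted p = 0.0061) and rose after re-watering (1.81 ± 0.18, adjusted p = 0.00672), with replicate libraries that differed little in every condition. Of the 5 lower calls whose rehydration libraries lay below all others, none carried a function in the annotation used here.

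**Figure D4:**
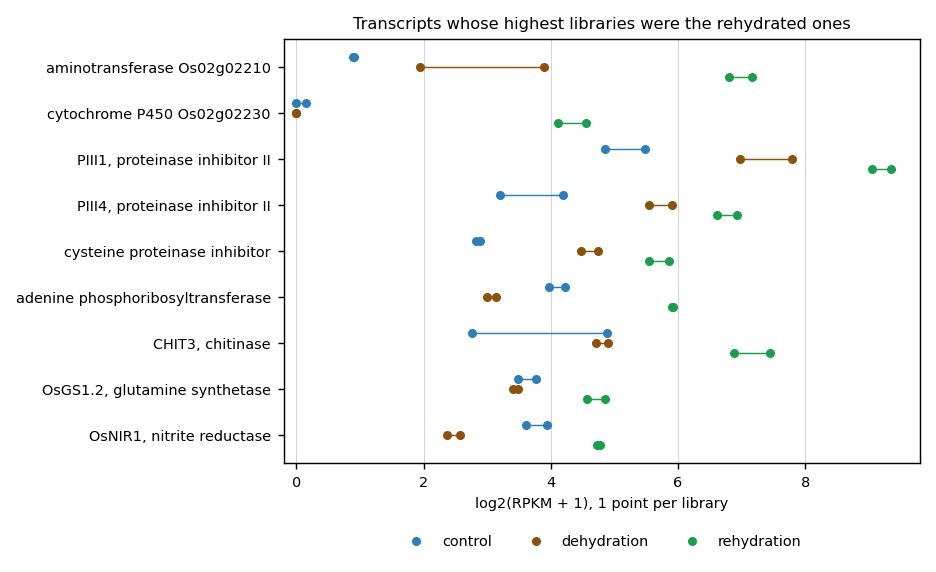
Expression of 9 transcripts as log2(RPKM + 1), 1 point per library, with a line joining the 2 libraries of a condition. In each the 2 rehydration libraries (green) are the highest, as for the cytochrome P450 LOC_Os02g02230 at 22.6 and 16.3 RPKM, and the first 6 were called higher than the control while CHIT3, OsGS1.2 and OsNIR1 were not.

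Transcripts for a lectin, protease inhibitors and other stress proteins were among the largest gains in RPKM. A jacalin-like lectin (LOC_Os01g24710), a carbohydrate-binding protein, held 67.1 and 81.2 RPKM in the control and 4170 and 3717 after rehydration, a change of 5.72 ± 0.43 (adjusted p = 0.00322), with 26211 and 13549 RPKM in dried shoots, and was the largest gain in mean RPKM among described transcripts whose libraries did not overlap. The locus has 4 models, among which reads may be split. The Bowman-Birk trypsin inhibitor BBTI7 (LOC_Os01g03390) stood at 50.6 and 39.6 RPKM in the control, 3577 and 2386 in dried shoots and 1178 and 806 after rehydration (4.41 ± 0.33, adjusted p = 0.00308). BBTI4 (LOC_Os01g03340) held 82.1 and 50.6 against 819 and 527 RPKM (3.33, adjusted p = 0.0125), and an inhibitor I family protein (LOC_Os01g42860) 47.8 and 37.1 against 1524 and 932 (4.79, adjusted p = 0.00397). Near-identical members of the Bowman-Birk cluster may share reads, which makes their separate levels uncertain. Both tested thaumatin-like proteins of the defence list rose, LOC_Os03g46060 from 3.01 and 3.90 to 61.9 and 37.6 RPKM (3.47, adjusted p = 0.00613) and LOC_Os03g14050 from 11.1 and 6.38 to 87.8 and 68.5 (3.06, adjusted p = 0.00521), of 13 members tested. An endochitinase (LOC_Os06g51060) held 11.6 and 22.4 RPKM in the control and 239 and 162 after rehydration (3.52, adjusted p = 0.0104). The metallothioneins, small metal-binding proteins, went both ways in level. LOC_Os01g05650 held 676 and 609 against 1891 and 1189 RPKM (1.22, adjusted p = 0.165), while RicMT (LOC_Os01g74300) held 909 and 915 against 302 and 231 (−1.78, adjusted p = 0.0275). A ubiquitin family protein (LOC_Os02g06640) held 522 and 445 RPKM in the control, 2239 and 2014 in dried shoots and 1949 and 1956 after rehydration, a change of 2.02 with an adjusted p of 0.0207.

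Genes of sugar and starch use, drawn by description from the hormone microarrays of other samples, were mostly above the control without passing the test. Of 13 tested, 10 (76.9%) had both rehydration libraries above both controls and 2 (15.4%) both below, against 26.9% of all transcripts each way. The median was 0.94, against 2.05 in dried shoots. By limma 0 passed at an adjusted p under 0.01 and 2 at an adjusted p under 0.05. At an unadjusted p under 0.05, 5 were higher and 2 lower, where 8.13% and 5.20% of all transcripts were called. A beta-amylase (LOC_Os10g32810), which releases maltose from starch, held 7.51 and 4.27 RPKM in the control, 34.1 and 33.1 in dried shoots and 35.3 and 25.8 after rehydration (2.22, adjusted p = 0.0138), and sucrose synthase LOC_Os03g22120 held 5.46 and 3.64 against 25.2 and 17.0 (1.99, adjusted p = 0.0155). A trehalose-6-phosphate synthase (LOC_Os02g54820), 1 of the 14 genes the study followed by quantitative RT-PCR, rose from 16.0 and 12.4 to 45.4 and 47.7 RPKM (1.66, adjusted p = 0.00949). Isocitrate lyase (LOC_Os07g34520_2), which starts the glyoxylate shunt that turns stored lipid into sugar precursors, was listed at 0 in both controls and stood at 369 and 165 RPKM in dried shoots and 61.1 and 32.0 after rehydration, with an adjusted p of 0.0039. Of those 14 genes, 4 rose and 1 fell, and the study picked them on these samples.

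Few transcripts were called lower. LOC_Os05g47540, a phosphoethanolamine methyltransferase that makes phosphocholine for membrane lipids and osmolytes, held 46.7 and 37.9 RPKM in the control, 0.857 and 0.858 in dried shoots and 2.73 and 2.79 after rehydration. Its change was −3.52 ± 0.23 with an adjusted p of 0.00241, and the adjusted p lay between 0.0165 and 0.0389 without 1 control or rehydration library. A protein similar to EGG APPARATUS-1 of maize (LOC_Os07g41410) fell from 85.8 and 117 to 21.7 and 13.9 RPKM (−2.46, adjusted p = 0.00897), and a pectinesterase inhibitor domain protein (LOC_Os10g36500) from 45.6 and 52.2 to 7.84 and 11.4 (−2.25, adjusted p = 0.00952). The GTPase-activating protein LOC_Os07g31720 stood at 170 (170.2) and 224 RPKM in the control, 36.9 and 32.3 in dried shoots and 43.7 and 31.8 after rehydration (−2.36 ± 0.23, adjusted p = 0.00669). Its rehydration libraries overlapped those of dried shoots and were far below both controls. OsWAK82 (LOC_Os09g29540), a wall-associated kinase, held 19.5 and 14.9 RPKM in the control and 0.933 and 1.96 after rehydration, with a change of −2.92 and an adjusted p of 0.0116. Only 4 of the 26 lower calls have a described function. Among the others the 2 largest changes were those of LOC_Os11g42550 and LOC_Os03g22010_1. The first went from 157 and 93.1 to 5.39 and 3.21 RPKM (−4.56, adjusted p = 0.00307), and the second from 24.5 and 16.1 RPKM to a listing of 0 in both rehydration libraries.

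The median of the photosynthesis and chloroplast list was close to the control again. This list was drawn by description from the genes of the hormone microarrays of other samples. Of 42 tested members 1 rose, which was PSY3, and 0 fell. The median change was −0.11 after rehydration, against −2.15 in dried shoots, and between −0.27 and 0.05 without 1 control or rehydration library. Both rehydration libraries lay below both controls for 13 (30.95%) and above for 7 (16.7%), against 26.9% of all transcripts each way. Several of the largest losses in RPKM among described transcripts were nevertheless of chloroplast genes. A chloroplast fructose-bisphosphate aldolase (LOC_Os11g07020), of the Calvin cycle, held 3463 and 2804 RPKM in the control, 280 (280.1) and 656 in dried shoots and 1984 and 1993 after rehydration (−0.65, adjusted p = 0.50). Ferredoxin I (LOC_Os08g01380), which carries electrons from photosystem I, held 2162 and 2323 against 1719 and 1666 (−0.41, adjusted p = 0.665), and subunit XI of photosystem I (LOC_Os12g23200) 917 and 853 against 654 and 584 (−0.52, adjusted p = 0.259). Rehydration and control libraries did not overlap for these genes, but such losses did not pass the test at this spread. The terpenoid synthase LOC_Os08g04500 lost more, from 989 and 1141 to 101 and 182 (182.5) RPKM (−2.96), with dried libraries at 11.9 and 135 RPKM. Its adjusted p was 0.158 with all 6 libraries, 0.0169 with the 4 control and rehydration libraries, and 0.325 to 0.464 without 1 of those 4.

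**Figure D5:**
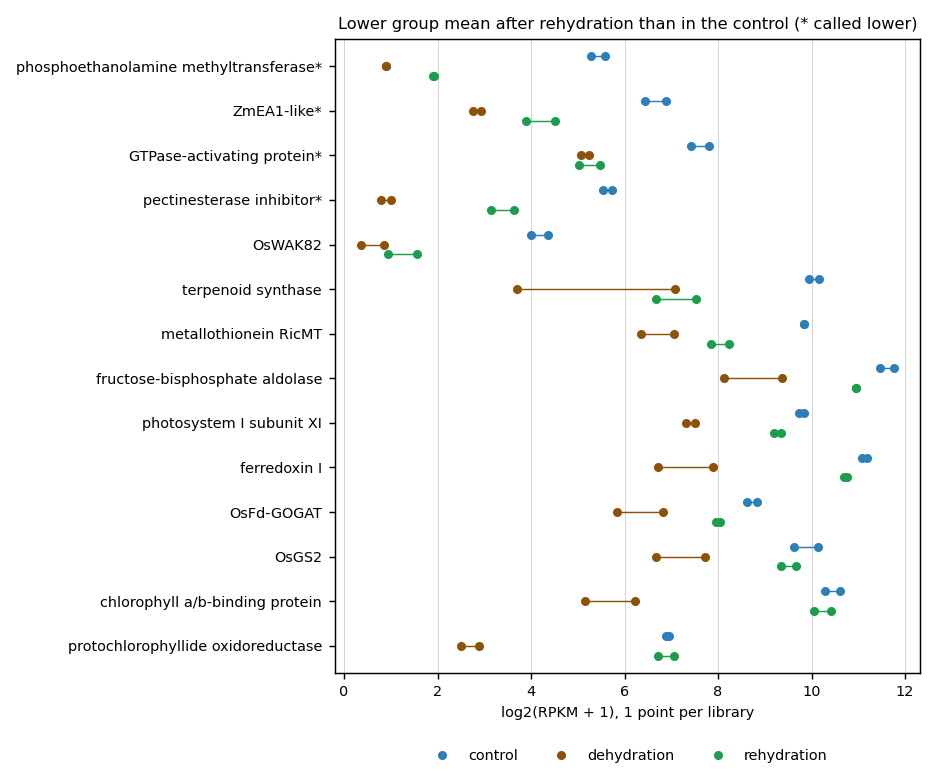
Expression of 14 transcripts with a lower group mean after rehydration than in the control, as log2(RPKM + 1), 1 point per library and a line joining the 2 libraries of a condition. The 4 marked with an asterisk were called lower, as the GTPase-activating protein at 170 (170.2) and 224 RPKM in the control (blue) and 43.7 and 31.8 after rehydration (green). The photosynthesis transcripts below them lie nearer to the control than to the dried shoots (brown).

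Of the nitrogen genes, 15 for uptake, 10 for assimilation and 4 for signalling were tested, all picked by the study on these samples, and 0 passed by limma at an adjusted p under 0.01. Their median changes were 0.65, 0.60 and −0.23. At an adjusted p under 0.05, 3 were higher and 1 lower. Without adjustment at p under 0.05 there were 3 and 1 in uptake, 3 and 1 in assimilation and 1 and 1 in signalling. At that threshold 8.13% and 5.20% of all transcripts were called. Both rehydration libraries lay above both controls for 10, 7 and 2 of the nitrogen genes and below for 2, 2 and 1, against 26.9% of all transcripts each way. The nitrate transporter OsNRT1.1A/OsNPF6.3 (LOC_Os08g05910) held 18.7 and 24.3 RPKM in the control and 37.7 and 43.0 after rehydration (0.89, adjusted p = 0.0842), and the ammonium transporter OsAMT1.1 (LOC_Os04g43070) 46.8 and 53.9, 5.89 and 11.6 in dried shoots, and 36.5 and 40.2 (−0.38, adjusted p = 0.54). The cytosolic and plastid arms of assimilation differed in level. OsGS1.2 (LOC_Os03g12290), a cytosolic glutamine synthetase, held 10.1 (10.15) and 12.6 RPKM in the control, 9.55 and 10.2 in dried shoots and 27.9 and 22.8 after rehydration (1.09, adjusted p = 0.0393). The chloroplast enzymes OsGS2 (LOC_Os04g56400), at 1126 and 791 against 811 and 650.3 RPKM (−0.38, adjusted p = 0.672), and OsFd-GOGAT (LOC_Os07g46460), at 453 and 393 against 263 and 248 (−0.72, adjusted p = 0.279), returned toward the control from 101 and 209 and from 56.5 and 112 RPKM in dried shoots. The asparagine synthetase OsAS1 (LOC_Os03g18130), which stores nitrogen as asparagine, held 28.9 and 18.6 RPKM in the control, 363 and 391 in dried shoots and 73.2 and 69.0 after rehydration (1.57, adjusted p = 0.0209). OsNIR1 (LOC_Os01g25484_1), the nitrite reductase, held 14.3 and 11.2 against 26.4 and 25.6 RPKM (0.98), but −0.40 was the change of the locus when its 3 models were summed. The transcription factor OsMYB61 (LOC_Os01g18240) held 21.5 and 23.3 RPKM in the control and 6.59 and 6.84 after rehydration (−1.60, adjusted p = 0.0216).

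Genes for the redox state, cell wall and translation, drawn by description from the same hormone microarrays, gave few calls, where 0.894% of all transcripts rose. Of 27 peroxidase and glutathione genes 1 rose, a glutathione S-transferase (LOC_Os04g35560) at 10.8 and 11.9 RPKM in the control and 46.7 and 41.7 after rehydration (1.87, adjusted p = 0.00631), and the list median of 0.72 became −0.08 without rehydration library 1. The glutaredoxin OsGrx_C7 (LOC_Os01g27140) held 6.99 and 5.99 against 41.3 and 23.8 RPKM (2.12, adjusted p = 0.0159). Of 24 cell wall genes 0 passed by limma at an adjusted p under 0.01. At an adjusted p under 0.05, 3 were higher and 1 lower, where 4.14% and 1.42% of all transcripts were called. At an unadjusted p under 0.05 there were 6 and 3, where 8.13% and 5.20% of all transcripts were called. A family 17 glycosyl hydrolase (LOC_Os01g71830) held 0.809 and 1.17 RPKM in the control and 22.7 and 29.5 after rehydration (3.76, adjusted p = 0.0161). Of the expansins, proteins that loosen walls as cells grow, 2 were lower in dried shoots than in the other conditions, OsEXPA4 (LOC_Os05g39990) at 27.2 and 31.7, 2.25 and 2.53 and 48.2 and 48.9 RPKM in control, dried and rehydrated shoots and the beta-expansin LOC_Os10g40700 at 5.51 and 3.21, 0.142 and 0.258 and 13.3 and 14.1 RPKM (1.49, adjusted p = 0.0462). These 2 expansins, like the glutathione S-transferase, were named after their values were seen. Of 26 genes for ribosomes and translation 0 passed by limma, with a median of −0.02 that lay between −0.11 and 0.12 without 1 control or rehydration library, and 1 was higher at either an adjusted or an unadjusted p under 0.05. That gene, with a SUI1 domain of translation initiation factors (LOC_Os04g53606), held 0.499 and 0.724 RPKM in the control, 0.552 and 1.17 in dried shoots and 4.08 and 11.4 after rehydration (2.30, adjusted p = 0.0458).

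Of 20 cytokinin genes, 25 auxin genes, 10 ethylene genes and 4 gibberellin genes, all listed by the study on these samples, 0 passed by limma at an adjusted p under 0.01. At an adjusted p under 0.05 with a fold over 2 these lists held 2 higher and 2 lower, 1 higher and 2 lower, 0 higher and 1 lower, and 0. Without adjustment at p under 0.05 and with that fold they held 4 higher and 4 lower, 1 and 7, 2 and 1, and 1 and 0, where 8.13% of all transcripts were higher and 5.20% lower. Of the 25 auxin genes, 13 (52.0%) had both rehydration libraries below both controls and 8 (32.0%) above, against 26.9% of all transcripts each way. The phosphotransfer proteins of cytokinin signalling PHP1 (LOC_Os01g54050), at 31.5 and 19.1 against 9.53 and 8.29 RPKM (−1.37, adjusted p = 0.0485), and PHP2 (LOC_Os05g09410), at 18.7 and 15.2 against 2.54 and 4.04 (−2.08, adjusted p = 0.0167), both remained below the control in both libraries. The auxin synthesis gene TAA1;2 (LOC_Os01g51980) held 14.8 and 9.65 RPKM in the control, 0.389 and 0.530 in dried shoots and 2.15 and 2.85 after rehydration (−1.89, adjusted p = 0.0257). GA2ox3 (LOC_Os01g55240), which inactivates gibberellin, held 3.53 and 8.99 against 25.4 and 17.2 RPKM (1.70, adjusted p = 0.0624), and GA20ox1 (LOC_Os03g63970), which makes it, 3.60 and 3.24, 0.679 and 1.24 in dried shoots, and 7.58 and 4.98 (0.70, adjusted p = 0.269). Both had rehydration libraries above the control, from a dried level above the control for the first and below it for the second.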

How the data were processed

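RNA from pools of 20 shoots was sequenced as stranded, poly(A)-selected paired-end libraries. By the methods of the study, the authors mapped reads to the MSU v7.0 rice annotation with 1 mismatch allowed (CLC Genomics Workbench 20.0.4) and deposited RPKM values per transcript model, so counts and absolute depth are unknown, and loci with several models (11277 tested transcripts) can share reads. Values were tested as log2(RPKM + 1) with limma 3.58.1 (R 4.3.3, trended prior) in 1 fit of all 6 libraries and 3 groups, with Benjamini-Hochberg adjustment over 25511 transcripts. The code was tested on simulated data. A fold on this scale understates changes of low transcripts. An exact permutation test of 2 against 2 cannot go below p = 0.333, so none was used, and limma's p-values measure the spread between pools. Named genes were the 12 higher described calls of largest change and the lower described calls, of which there were 4 where the rule allowed 10. Added to these were up to 4 non-overlapping members per list, the 10 largest gains and losses in mean RPKM, the genes the study names, and 2 undescribed calls each way. Others are said to be named after their values were seen. Descriptions came from the study's tables for 3804 transcripts, mostly ones raised by dehydration, so that described shares of higher and lower calls cannot be compared. Lists by function, such as those for defence, transporters and kinases, were drawn by description from hormone-responsive genes in microarrays of other samples. They are not whole functional classes. Members and lists were chosen with earlier results of these data known. The alternatives tried are given in the closing section.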

Additional observations from a re-analysis of the deposited data

How the results depend on the processing

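The counts of calls depended on the settings, while the directions of named genes rarely did. Genes named from the lists and from the largest gains and losses were chosen for libraries that did not overlap. Leaving out 1 library could not reverse the direction of these. Against 228 higher and 26 lower, leaving out 1 library in turn gave 0 to 118 higher and 0 to 11 lower. The 4 control and rehydration libraries alone gave 85 and 12, no filter 65 and 6, and models summed per locus 527 and 118, while an adjusted p under 0.05 gave 1057 and 363 and an unadjusted p under 0.01 gave 1549 and 770. Without the trend 112 were higher. Lower calls numbered 11 with a pseudocount of 0.1, 42 with 5, and 50 with quantile normalization, and the cause was not tested. The libraries share replicate numbers but are not stated to be paired. Their deviations correlated at 0.142 between control and rehydration, and with the replicate block 315 were called higher and 36 lower, of which 211 and 18 were among the 228 and 26. Directions changed for OsNIR1 (LOC_Os01g25484_1, 0.98 to −0.40) and WRKY95 (LOC_Os12g02440_1, −2.61 to 0.19) on summing models, and for the aminotransferase LOC_Os08g41990 (0.06 to −0.08) with quantile normalization. With 1 library left out, changes near 0 crossed it for LOC_Os08g41990 (−0.12 to 0.25), LOC_Os01g04950 (−0.24 to 0.51), LOC_Os03g48180 (−0.29 to 0.08), LOC_Os06g22440 (−0.49 to 0.12), LOC_Os10g35370 (−0.20 to 0.14) and LOC_Os11g12740 (−0.14 to 0.25). Higher calls made up 89.8% of all calls, and 85.0% under quantile normalization or 81.8% with a pseudocount of 5. The depth of each library is known only relative to the others, which leaves no counting interval for a transcript listed at 0.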

Other observations

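Several calls outside the groups of the report were seen after their values were known. Calcium sensors, amino acid use and small stress proteins were among them. The calmodulin-related OsCML16 (LOC_Os01g04330) held 19.4 (19.45) and 22.7 RPKM in the control, 396 and 408 in dried shoots and 304 and 365 after rehydration, a change of 3.92 ± 0.19 on the log2 scale (limma adjusted p = 0.00135), so that both rehydrated pools stayed close to the dried level. OsCML31 (LOC_Os01g72530) held 7.32 and 13.1 RPKM in the control and 95.8 and 179 (179.0) after rehydration (3.61, adjusted p = 0.00709). In amino acid metabolism, saccharopine dehydrogenase (LOC_Os02g54254_1), of lysine breakdown, held 9.52 and 14.1 against 193 and 153 RPKM (3.77, adjusted p = 0.00689), and an aldehyde dehydrogenase similar to antiquitin (LOC_Os09g26880) held 67.6 and 63.1 against 348 and 279 (2.24, adjusted p = 0.00952). An amino acid transporter (LOC_Os02g09810_1) held 11.5 and 16.2 against 163 and 158 RPKM (3.46, adjusted p = 0.00290). ERD1 (LOC_Os02g32520_2), a chloroplast Clp-type protein induced early by drying in Arabidopsis, held 16.1 (16.15) and 29.4 against 322 and 527 (527.5) RPKM (4.18, adjusted p = 0.00475), and OsRCI2-5 (LOC_Os03g17790), a small membrane protein of the cold and salt response, 14.7 and 19.4 against 370 (369.8) and 311 (4.25, adjusted p = 0.00241). The defensin DEF8 (LOC_Os03g03810) held 2.81 and 2.14 RPKM in the control and 29.6 (29.65) and 28.7 after rehydration (3.12, adjusted p = 0.00322).

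The lists not described above had few calls, where 0.894% of all transcripts rose. Of 11 lipid transfer and wax genes tested 1 rose, the lipid transfer protein LOC_Os11g24070 at 1.93 and 3.50 RPKM in the control and 21.6 and 25.2 after rehydration (2.74, adjusted p = 0.00669), and the median of 1.03 was 0.49 without control library 1. Of 56 receptor and other kinases 1 rose, the MAP kinase kinase kinase MAP3K.5 (LOC_Os01g50400) at 0.119 and 0.130 (0.1295) against 10.9 and 13.7 RPKM (3.56, adjusted p = 0.00241), with a list median of 0.13. By limma at an adjusted p under 0.01, 0 passed among 11 heat shock and chaperone genes, 16 cytochrome P450 genes, 37 transporters, 27 bHLH and 10 CONSTANS-like factors, and at an adjusted p under 0.05 with a fold over 2 these lists had 1, 2, 2, 3 and 0 higher and 0, 0, 2, 0 and 0 lower. Without adjustment at p under 0.05 and with that fold the 5 lists held 3, 3, 6, 8 and 0 higher and 1, 1, 6, 3 and 0 lower. At that threshold 8.13% of all transcripts were higher and 5.20% lower. Of 28 bZIP factors 1 rose (bZIP23) and of 19 MYB-related factors 1 rose.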
